A study of Mus musculus with 7 samples.

Results

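Small-conductance calcium-activated (SK) and two-pore-domain (K2P) potassium channel genes were examined in adult left atria of the outbred mouse strain CD1. The 6 genes Kcnn1, Kcnn2, Kcnn3, Kcnk1, Kcnk2 and Kcnk3 were taken by name from the 24421 genes of the count table. Of these, 5 had enough reads to be tested among 13295 genes, and Kcnk1 did not. There were 4 libraries from left atria labelled FOG2 overexpression and 3 from left atria labelled wild type. Animals of both groups, called DTG and NTG in the protocol, were kept without doxycycline for 1 week. The promoter or cell type that drives FOG2, the sex and litter of the animals, and whether tissue was pooled were not stated in the labels. Nothing in them ties each library to its own animal, so the p-values reflect the spread from library to library, and some of that may be technical. Zfpm2 encodes FOG2, a zinc finger protein that partners GATA factors, and the series title links it with TBX5, GATA4 and atrial fibrillation risk.

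SK channels are opened by calcium inside the cell and do not sense voltage, so they let potassium out of the cell when calcium is high. In atrial muscle they add to late repolarisation, and common variants near human KCNN3 are associated with atrial fibrillation. K2P channels carry background potassium current that contributes to the resting potential. TASK-1, encoded by Kcnk3, is inhibited by acid and by receptors that couple to Gq, and is enriched in human atria over ventricles. TREK-1, encoded by Kcnk2, is opened by membrane stretch and lipids, and TWIK-1, encoded by Kcnk1, was the founding member of the family.

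Zfpm2 itself was measured at 140.1, 222, 262 and 246 CPM (the standard CPM unit, a gene's reads relative to all reads counted to genes in the library, with totals scaled by TMM) in overexpression replicates 1 to 4, against 31.7, 30.9 and 29.4 CPM in wild type replicates 1 to 3. Every overexpression library stood above every wild type library, as the labels say (log2 fold change 2.82 ± 0.22, SE, adjusted p = 2.05e-04 by edgeR's quasi-likelihood test with Benjamini-Hochberg adjustment, as for every adjusted p here unless another tool is named). Gene counts summed to 5562520 to 8655655 per library, so that 1 read stood for 0.111 to 0.174 CPM. Overexpression replicate 1 stood apart, with r = 0.947 to 0.949 to the rest of its group across genes, where the other 3 overexpression libraries had r = 0.978 to 0.983 among themselves and wild type libraries 0.977 to 0.983. The atrial light chain gene Myl4 stood at 8332 ± 622 CPM in overexpression (SD, n = 4) and 9407 ± 748 CPM in wild type (SD, n = 3). The ventricular factor Irx4 had 0 CPM in overexpression and 0.0471 ± 0.0815 CPM in wild type. The other markers of these lists were mixed. Of 9 atrial markers, 2 were called lower in overexpression, Myl7 (2095 against 8483 CPM) and Sln (1072 against 3201 CPM), and 7 did not pass. The ventricular gene Myl3 had 47.2 ± 24.6 CPM in overexpression and 58.4 ± 18.5 CPM in wild type, and Myl2 reached 45.3 CPM in overexpression replicate 2. Neither Myl3 nor Myl2 was called.

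**Figure D1:**
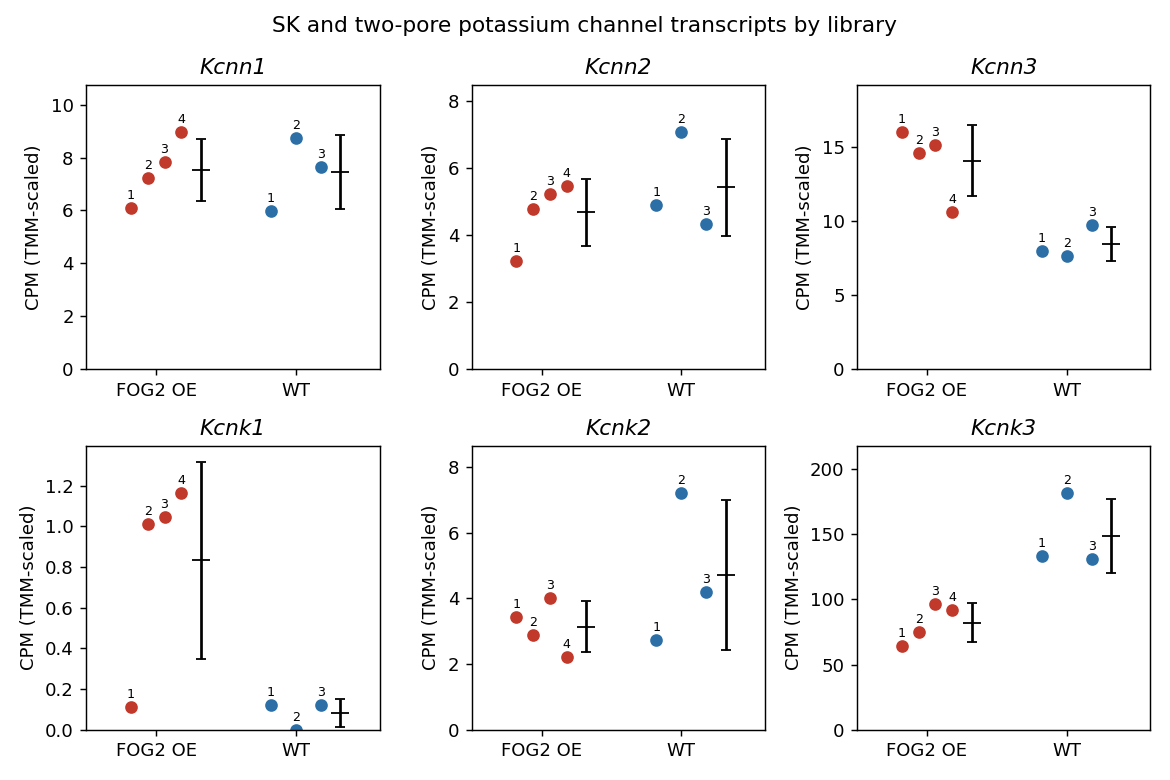
Level of each of the 6 channel genes in CPM (y axis, linear from 0) in FOG2 overexpression (red) and wild type (blue) libraries; numbers are replicates, bars the mean and SD. Kcnk3 was lower in all 4 overexpression libraries (64.2 to 96.6 CPM) than in any wild type library (131 to 182 CPM), and Kcnn3 higher (10.6 to 16.0 against 7.63 to 9.73 CPM); the groups overlapped for the other 4 genes.

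Kcnk3 fell in atria overexpressing FOG2 and was the only member of the 6 that passed the test. Its transcripts stood at 64.2, 75.2, 96.6 and 92.0 CPM in overexpression replicates 1 to 4, against 134, 182 and 131 CPM in wild type replicates 1 to 3. The groups did not overlap, and the highest overexpression library, replicate 3, stayed below the lowest wild type library. Means were 82.0 ± 15.0 CPM (SD, n = 4) in overexpression and 149 ± 28.6 CPM (SD, n = 3) in wild type, a level of 55.1% of wild type (log2 fold change -0.86 ± 0.17, SE, 95% confidence interval -1.24 to -0.48; edgeR quasi-likelihood test, adjusted p = 0.0229). Over all 13295 genes tested, 4.84% were called in either direction and 3.29% were called lower, so 1 call among 5 tested members stands against that background. A log2 fold change at least as low was found in 2.82% of tested genes. Leaving out overexpression replicate 2 gave an adjusted p of 0.0663, wild type replicate 1 of 0.0606 and wild type replicate 2 of 0.103; leaving out overexpression replicate 1 gave 0.0109. In all 7 of these fits with 1 library left out, the log2 fold change lay between -0.95 and -0.69.

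Kcnk3 spans chromosome 5, 30588170 to 30625271, plus strand (GRCm38, the mm10 assembly, GENCODE M21). Of its 3976 exon bases, 229 overlap the opposite-strand transcript Gm9899, and without a stated strand setting reads there cannot be told apart.

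Atrial cardiomyocyte markers were read beside Kcnk3. Of 9 such markers, 2 fell, 0 rose and 7 did not pass, against 3.29% of all tested genes called lower, with a median log2 fold change of -0.40 beside 0.022 for all tested genes. The 2 that fell were Myl7, an atrial myosin light chain (-2.02 ± 0.30), and Sln, the calcium pump regulator sarcolipin (-1.58 ± 0.15). Summed over the 9 markers, the level was 96580 to 135900 CPM in overexpression libraries and 150300 to 175800 CPM in wild type libraries, with no marker at 0. This sum weighs the most abundant markers most. The largest was Ttn, which was not called, at 56102 ± 11097 CPM in overexpression and 74321 ± 8579 CPM in wild type. Relative to 100000 CPM of these markers, Kcnk3 stood at 56.8, 77.9, 77.4 and 67.7 CPM in overexpression replicates 1 to 4, against 88.9, 103.4 and 81.7 CPM in wild type replicates 1 to 3. On this scale, too, the groups did not overlap, and the overexpression mean was 76.6% of the wild type mean, closer to it than the 55.1% of the CPM scale. In bulk tissue, fewer cells of a type and less RNA per cell cannot be told apart, and the part of the lower marker sum in the fall of Kcnk3 was not tested.

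**Figure D2:**
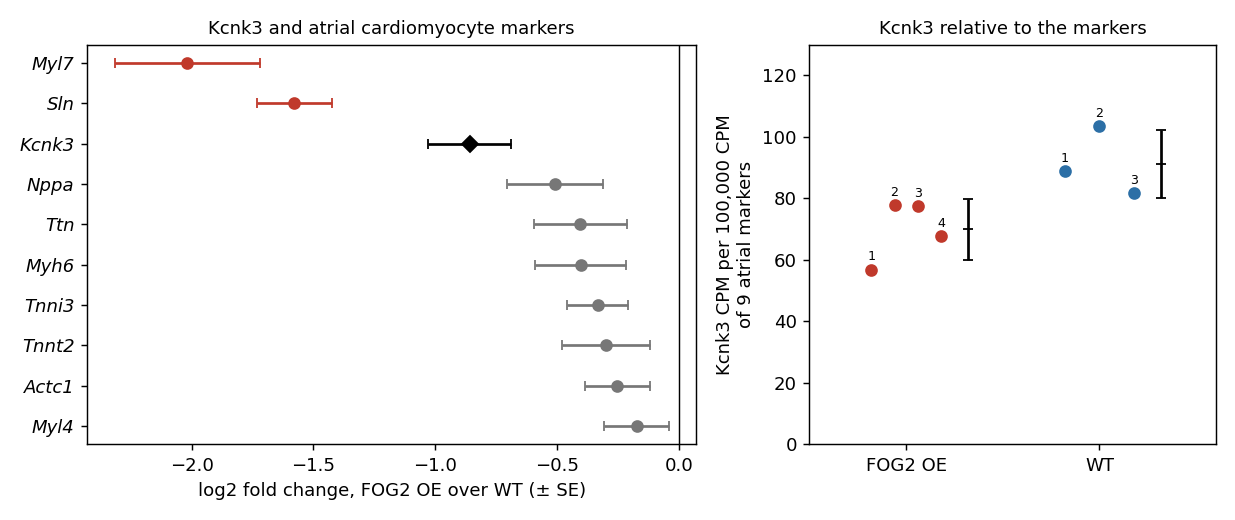
Left, log2 fold change of Kcnk3 (black diamond) and of 9 atrial cardiomyocyte markers, FOG2 overexpression over wild type, with the SE; red marks markers with an adjusted p under 0.05. Right, Kcnk3 per 100000 CPM of the summed markers in each library, with the mean and SD: overexpression libraries reached at most 77.9, and wild type libraries started at 81.7.

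Kcnk1, the TWIK-1 gene, was at the edge of detection. Its reads numbered 1, 7, 6 and 10 in overexpression replicates 1 to 4, against 1, 0 and 1 in wild type replicates 1 to 3, too few to pass the filter on low counts. Replicates 2, 3 and 4 of overexpression, at 1.01, 1.04 and 1.16 CPM, stood above wild type, at 0.119, 0 and 0.123 CPM, whereas overexpression replicate 1, at 0.111 CPM, lay within the wild type range. Summed over each group, 24 reads in overexpression and 2 in wild type gave a ratio of 9.35 (95% interval 2.32 to 81.6, for counting error only). An exact two-sided permutation test over libraries gave p = 0.171, and 4 libraries against 3 cannot give less than 0.0571. Without overexpression replicate 1 the log2 ratio was 3.67, against 3.22 with it. Kcnk1 spans chromosome 8, 125995170 to 126030685, plus strand, and 179 of its 2235 exon bases overlap the antisense gene Gm45875.

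Kcnk2, the TREK-1 gene, had 3.44, 2.89, 4.0 and 2.21 CPM in overexpression replicates 1 to 4, against 2.74, 7.20 and 4.19 CPM in wild type replicates 1 to 3. The wild type libraries spread more widely than the difference between the groups, and 3 of the 4 overexpression libraries lay within the wild type range. Means were 3.14 ± 0.766 CPM (SD, n = 4) in overexpression and 4.71 ± 2.28 CPM (SD, n = 3) in wild type, and the difference did not pass (log2 fold change -0.59 ± 0.36, SE, adjusted p = 0.416). Its 95% confidence interval, -1.40 to 0.23, holds both a fall as large as that of Kcnk3 and no change. Wild type replicate 2 set much of the value, which was -0.15 without that library. Kcnk2 spans chromosome 1, 189207930 to 189402273, minus strand, and 604 of its 4943 exon bases overlap the antisense gene A430027H14Rik.

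Among the SK genes, Kcnn3 was higher in every overexpression library but missed the threshold. This gene of the SK3 subunit had 16.0, 14.6, 15.1 and 10.6 CPM in overexpression replicates 1 to 4, against 7.99, 7.63 and 9.73 CPM in wild type replicates 1 to 3. The groups did not overlap, though overexpression replicate 4 lay nearer to wild type replicate 3 than to the rest of its own group. Means were 14.1 ± 2.40 CPM (SD, n = 4) in overexpression and 8.45 ± 1.12 CPM (SD, n = 3) in wild type, or 1.66-fold (log2 fold change 0.73 ± 0.19, SE, 95% confidence interval 0.31 to 1.15; unadjusted p = 0.00331 and adjusted p = 0.0592 with edgeR's quasi-likelihood test). The adjusted p was 0.0369 without overexpression replicate 4, 0.0300 with DESeq2 and 0.0379 with library totals as the only scaling, and it reached 0.230 without wild type replicate 2. Scaling by totals put the median over all tested genes at 0.15, and relative to that median Kcnn3 stood at 0.71 with either scaling. Groups that do not overlap were found in 2 of the 5 tested members, Kcnk3 (lower) and Kcnn3 (higher), and in 19.8% of all tested genes, 10.8% lower and 8.99% higher. An unadjusted p under 0.05 was found in these 2 members and in 19.2% of all tested genes.

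The summed levels of 3 marker lists were higher in every overexpression library than in any wild type library, as for Kcnn3, though few single markers were called. Over all tested genes, 1.55% were called higher by edgeR and 19.2% had an unadjusted p under 0.05. Fibroblast markers summed to 5745 to 7277 CPM in overexpression and 4477 to 5322 CPM in wild type (0 of 6 called by edgeR, 3 at an unadjusted p under 0.05, 2 higher by DESeq2, none at 0), with no single marker separating the groups and values from -0.13 for Tcf21 to 0.88 for Col1a1. Schwann cell markers summed to 23.9 to 30.3 CPM in overexpression and 14.4 to 21.8 CPM in wild type (of 6 listed and 4 tested, 0 called by edgeR, 2 at an unadjusted p under 0.05, 1 higher by DESeq2, none at 0 in every library). Smooth muscle and pericyte markers summed to 1142 to 1647 CPM in overexpression and 356 to 447 CPM in wild type, and none was at 0 in every library. Of these 8 markers, 2 rose, Acta2, smooth muscle actin (5.05 ± 0.33, adjusted p = 0.000137), and Cspg4, a pericyte proteoglycan (1.34 ± 0.20, adjusted p = 0.00592). DESeq2 called 4 of the 8 higher and 0 lower, and 6 had an unadjusted p under 0.05 by edgeR. Those 6 included Tagln (2.12 ± 0.51), Cnn1 (1.29 ± 0.40) and Myh11 (1.26 ± 0.42), but not Rgs5 (0.29 ± 0.14) or Kcnj8 (0.092 ± 0.15). Without overexpression replicate 1, 4 of 8 rose, while the genes called higher over the whole table went from 206 to 493. Endothelial marker sums overlapped between the groups, at 1467 to 1889 CPM in overexpression and 1760 to 1954 CPM in wild type (0 of 7 called by edgeR, 1 at an unadjusted p under 0.05, 1 lower by DESeq2, none at 0). Of the 7 single endothelial markers only Vwf separated the groups, at 473 ± 23.1 CPM in overexpression and 617 ± 23.1 CPM in wild type (-0.38 ± 0.097, edgeR adjusted p = 0.0581). The groups were also separate for 4 of 8 smooth muscle and pericyte markers and 2 of 4 tested Schwann cell markers, all higher in overexpression. Over all tested genes 19.8% were separate, 10.8% lower and 8.99% higher. Relative to 1000 CPM of fibroblast markers, Kcnn3 stood at 1.84 to 2.66 CPM in overexpression and 1.70 to 1.83 CPM in wild type, still without overlap. Relative to Schwann cell markers the groups overlapped. Relative to 1000 CPM of endothelial markers, Kcnn3 stood at 7.22 to 9.65 CPM in overexpression and 3.90 to 5.53 CPM in wild type, without overlap. Per 1000 CPM of smooth muscle and pericyte markers Kcnn3 stood at 10.6 ± 1.98 CPM in overexpression and 21.2 ± 1.6 CPM in wild type. That direction rested on Acta2: relative to the other 7 markers, a choice made after seeing the data, Kcnn3 stood at 19.1 to 31.6 CPM in overexpression and 20.5 to 23.7 CPM in wild type, and the groups overlapped. Of 11 neuronal markers, which could report cardiac ganglia, Chat, Slc18a3, Th and Snap25 were at 0 in every library, and 2 were tested with 0 called by edgeR or DESeq2 and 0 at an unadjusted p under 0.05. Dbh, the noradrenaline-synthesising enzyme, had the highest mean level of that list, at 1.56, 5.20, 4.52 and 3.61 CPM in overexpression replicates 1 to 4, against 3.34, 7.34 and 7.39 CPM in wild type replicates 1 to 3, and the list had sums of 4.78 to 7.08 CPM in overexpression and 5.49 to 9.98 CPM in wild type. The part of these cell types in the Kcnn3 difference was not tested.

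Kcnn1, the gene of SK1, had 6.11, 7.22, 7.83 and 8.96 CPM in overexpression replicates 1 to 4, against 5.96, 8.76 and 7.64 CPM in wild type replicates 1 to 3. The groups covered nearly the same range, with means of 7.53 ± 1.19 CPM (SD, n = 4) in overexpression and 7.45 ± 1.41 CPM (SD, n = 3) in wild type. The log2 fold change was 0.017 ± 0.21 (SE, adjusted p = 0.976), with a 95% confidence interval of -0.46 to 0.49. Kcnn2, the gene of SK2, had 3.22, 4.77, 5.22 and 5.47 CPM in overexpression replicates 1 to 4, against 4.89, 7.06 and 4.31 CPM in wild type replicates 1 to 3. Overexpression replicate 1 was the lowest and wild type replicate 2 the highest library, and the others overlapped. The log2 fold change was -0.22 ± 0.27 (SE, 95% confidence interval -0.83 to 0.40, adjusted p = 0.710), and it was 0.015 without wild type replicate 2. Without overexpression replicate 1 the values were 0.11 for Kcnn1 and -0.063 for Kcnn2. The intervals of both genes overlap that of Kcnn3, and the difference between these genes was not tested. Kcnn2 spans chromosome 18, 45268860 to 45686024, plus strand, and 607 of its 7468 exon bases overlap 2 genes of the opposite strand.

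Kcnn3 spans chromosome 3, 89520164 to 89675132, plus strand, and none of its exon bases overlap another gene. Kcnn1 spans chromosome 8, 70842049 to 70863258, minus strand, and 132 of its 4587 exon bases overlap A230052G05Rik.

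Because the series names TBX5 and GATA4, the 250 bases before each start listed by RefSeq (GRCm38.p6) were searched on both strands for AGATAA, a form of the GATA site, and AGGTGT, the core of the T-box site. The table matched 4 of the 6 genes, Kcnn1, Kcnn3, Kcnk1 and Kcnk2, with 8 starts. AGATAA was in 0 of the 8 windows and in 9.99% of all 32851 windows of that length, and AGGTGT in 1 of 8 and 11.8% of all. Other forms of the GATA site were not searched, so these windows may hold them. Shown are the window of Kcnn3, the member whose libraries were all higher, at chr3:89519914-89520163 on the plus strand, and the stretch of Kcnn1 that holds the match, bases 200 to 101 before its second start, at chr8:70857109-70857208 on the minus strand, with the AGGTGT match in capitals.
Kcnn3: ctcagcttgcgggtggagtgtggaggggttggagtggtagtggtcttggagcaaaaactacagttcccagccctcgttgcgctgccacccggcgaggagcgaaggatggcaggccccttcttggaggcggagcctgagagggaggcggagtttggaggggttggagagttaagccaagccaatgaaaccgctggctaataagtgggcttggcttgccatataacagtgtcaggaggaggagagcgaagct
Kcnn1: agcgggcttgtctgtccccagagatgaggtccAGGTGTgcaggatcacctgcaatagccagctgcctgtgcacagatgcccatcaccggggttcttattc
The match is a description of these letters and not of binding, and the gene that holds it, Kcnn1, had a log2 fold change of 0.017.

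**Figure D3:**
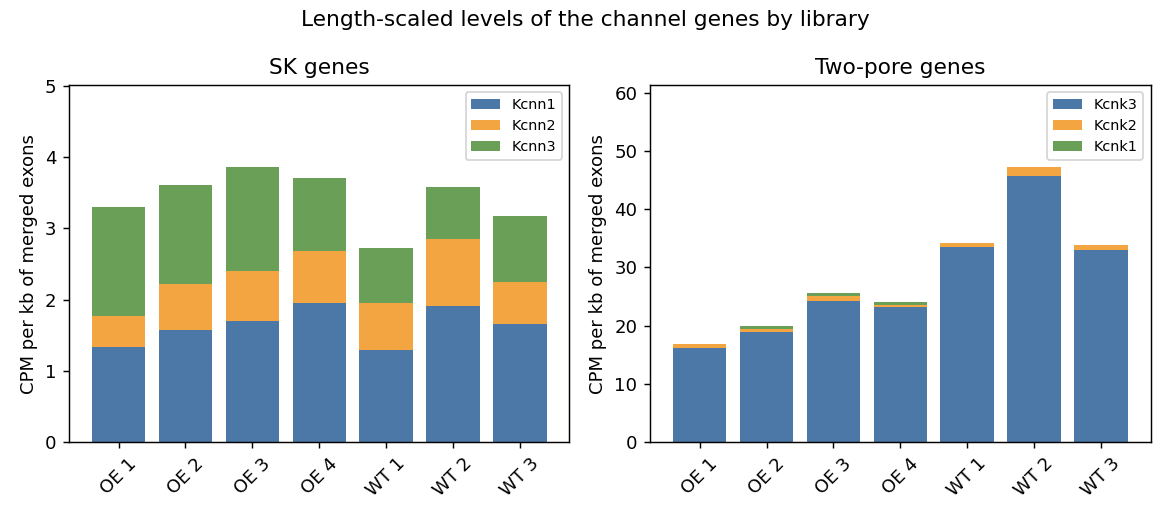
CPM per kb of merged exons (y axis, linear from 0) of the SK genes (left) and of the K2P genes (right), stacked, in each overexpression (OE) and wild type (WT) library. Kcnk3 made up 94.8% to 96.0% of the K2P sum in overexpression and 96.9% to 98.2% in wild type, while no SK gene made up over 53.3% of the SK sum in any library.

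Levels were compared between genes per kb of merged exons, a scale that takes no account of which isoforms the atrium uses. Kcnk3 was the most abundant of the 6, at 20.6 ± 3.77 CPM per kb in overexpression (SD, n = 4) and 37.4 ± 7.20 CPM per kb in wild type (SD, n = 3). In overexpression the order continued with Kcnn1 at 1.64 ± 0.259, Kcnn3 at 1.35 ± 0.229, Kcnk2 at 0.634 ± 0.155, Kcnn2 at 0.625 ± 0.135 and Kcnk1 at 0.372 ± 0.217 CPM per kb. Of these neighbours only Kcnk3 and Kcnn1, and Kcnn3 and Kcnk2, had ranges over libraries that did not overlap. In wild type the order after Kcnk3 was Kcnn1 at 1.62 ± 0.307, Kcnk2 at 0.953 ± 0.460, Kcnn3 at 0.808 ± 0.108, Kcnn2 at 0.726 ± 0.194 and Kcnk1 at 0.0362 ± 0.0313 CPM per kb. There the ranges of Kcnn1 and Kcnk2, of Kcnk2 and Kcnn3, and of Kcnn3 and Kcnn2 overlapped.

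The mean share of Kcnn3 in the SK sum was larger in overexpression, but the groups overlapped and the difference was not tested. Kcnn3 contributed 46.5%, 38.7%, 37.6% and 27.4% of the SK sum per kb in overexpression replicates 1 to 4, against 28.1%, 20.4% and 29.3% in wild type replicates 1 to 3. Overexpression replicate 4 lay within the wild type range and the other 3 above it. Kcnn1 contributed 45.3% ± 5.29 in overexpression and 51.2% ± 2.95 in wild type, and Kcnn2 17.2% ± 2.87 and 22.9% ± 4.22 in the same order (SD, n = 4 and n = 3). The SK sum itself overlapped between groups, at 3.29 to 3.85 CPM per kb in overexpression and 2.72 to 3.58 in wild type, whereas the K2P sum, nearly all Kcnk3, was 16.9 to 25.6 CPM per kb in overexpression and 33.8 to 47.2 in wild type.

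The other channel genes of the 2 families did not pass the test. Of 12 further genes, 4 had enough reads, and 0 were called by edgeR or DESeq2 (1, Kcnn4, at an unadjusted p under 0.05), with a median log2 fold change of 0.13 beside 0.022 for all tested genes. Kcnn4, the intermediate-conductance relative of the SK genes, had 1.22, 0.433, 0.696 and 0.349 CPM in overexpression replicates 1 to 4, against 0.954, 2.54 and 1.48 CPM in wild type replicates 1 to 3 (-1.24 ± 0.52, adjusted p = 0.239). Its groups overlapped through overexpression replicate 1. Kcnk6 (TWIK-2) was the second most abundant K2P gene measured, at 3.86 ± 0.591 CPM per kb in overexpression and 3.43 ± 0.631 in wild type (0.17 ± 0.18, adjusted p = 0.638). Kcnk5 (TASK-2, an alkaline-activated channel) had 5.29 ± 1.48 CPM in overexpression and 4.18 ± 1.25 CPM in wild type (0.34 ± 0.31, adjusted p = 0.585), and Kcnk13 (THIK-1) 1.55 ± 0.456 and 1.47 ± 0.549 CPM in the same order (0.095 ± 0.40, adjusted p = 0.920). Kcnk9, which encodes TASK-3, a known partner of TASK-1, had 0 reads in all 7 libraries, as had Kcnk12, Kcnk15, Kcnk16 and Kcnk18. Kcnk4, Kcnk7 and Kcnk10 had at most 2 reads in any library.

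**Figure D4:**
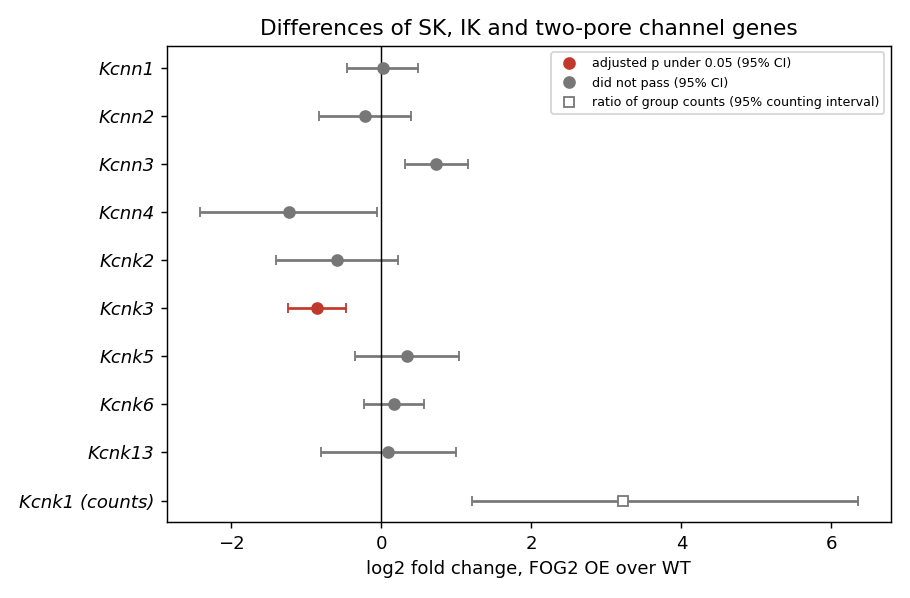
Log2 fold change, FOG2 overexpression over wild type (x axis), of the tested SK, IK (Kcnn4) and K2P genes with 95% confidence intervals, and of Kcnk1 as a ratio of summed reads with its counting interval (open square). Kcnk3 (red, -0.86) was the only gene called; the interval of Kcnn3 (0.31 to 1.15) lay above 0, and that of Kcnn4 below it, before adjustment over all genes.

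Partners of the SK channels were not called in either direction. The list of 13 included casein kinase and phosphatase subunits that set the channel's calcium sensitivity, and cytoskeletal and calcium channel partners. All 13 were tested and 0 passed, with a median log2 fold change of 0.19 beside 0.022 for all tested genes. At an unadjusted p under 0.05 there were 3 of the 13, beside 19.2% of all tested genes, among them Flna and Csnk2a1. Flna, the filamin that aids SK2 trafficking, had 1266, 839, 745 and 691 CPM in overexpression replicates 1 to 4, against 495, 482 and 513 CPM in wild type replicates 1 to 3 (0.83 ± 0.20, adjusted p = 0.0527). Csnk2a1, a catalytic casein kinase subunit, had 101 ± 11.3 CPM in overexpression and 135 ± 2.96 CPM in wild type (-0.42 ± 0.10, adjusted p = 0.0552). Neither gene's groups overlapped, which also held for 19.8% of all tested genes. Without overexpression replicate 1, 3 of the list passed, Flna (adjusted p = 0.00668), Csnk2a1 (0.0414) and Cacna1d (0.00735). That fit also called more genes over the whole table, 493 higher and 658 lower against 206 and 438 with all libraries. Flna (0.0454) and Csnk2a1 (0.0423) passed without overexpression replicate 4 and with DESeq2 (0.00131 and 0.0117), and Flna passed with library totals only (0.0292) and with no filter (0.0350). Without wild type replicate 2 the adjusted p of Flna was 0.206. Cacna1d, an L-type calcium channel gene, stood at 0.56 ± 0.25 (adjusted p = 0.261) with all 7 libraries.

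Partners of the K2P channels were not called either. Of 16 genes, 15 were tested and 0 passed with edgeR or DESeq2, with a median log2 fold change of 0.093 beside 0.022 for all tested genes. At an unadjusted p under 0.05 there were 3 of the 15, beside 19.2% of all tested genes. Those with the smallest p were Bves, the Popeye domain protein that binds TREK-1, with 34.8 ± 3.23 CPM in overexpression and 42.5 ± 0.999 CPM in wild type (-0.29 ± 0.10, adjusted p = 0.163), and S100a10, which binds TASK-1, with 129 ± 49.2 CPM in overexpression and 81.4 ± 3.81 CPM in wild type (0.67 ± 0.26, adjusted p = 0.207; 0.39 without overexpression replicate 1). Popdc3 (-0.34 ± 0.15, adjusted p = 0.242) and Ywhaq, a 14-3-3 protein of the family that carries TASK-1 to the membrane (0.24 ± 0.15, adjusted p = 0.411), followed. Sptbn4, the beta-IV spectrin that anchors TREK-1, was too low to test, with 1, 3, 0 and 4 reads in overexpression replicates 1 to 4, against 10, 7 and 12 reads in wild type replicates 1 to 3. All 4 overexpression libraries held fewer Sptbn4 reads than any wild type library, and 10.8% of all tested genes were lower without overlap in CPM. Of the 15 tested partners, 2 had groups that did not overlap, Bves (lower) and S100a10 (higher), beside 19.8% of all tested genes.

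In the Gq pathway, through which agonists close TASK-1, 2 of 13 tested genes fell, 0 rose and 11 did not pass, against 3.29% of all tested genes called lower, with a median of 0.021 beside 0.022 for all tested genes. Ednra, the endothelin A receptor, had 12.4, 19.4, 23.1 and 25.0 CPM in overexpression replicates 1 to 4, against 41.1, 49.9 and 48.7 CPM in wild type replicates 1 to 3 (-1.22 ± 0.21, adjusted p = 0.0127). Agtr1a, the angiotensin II receptor, had 4.66, 6.64, 6.44 and 4.77 CPM in overexpression replicates 1 to 4, against 10.1, 15.1 and 13.3 CPM in wild type replicates 1 to 3 (-1.20 ± 0.21, adjusted p = 0.0132). Neither pair of groups overlapped, which also held for 19.8% of all tested genes. The adjusted p of Ednra was 0.0676 when wild type replicate 2 was left out and 0.0529 when replicate 3 was, and that of Agtr1a 0.0828 and 0.0547. The other tested receptors on the list did not pass, Adra1a at 0.074 ± 0.60, Adra1b at -0.32 ± 0.33 and Chrm3 at 0.13 ± 0.34. The G protein genes Gnaq (0.029 ± 0.092) and Gna11 (0.11 ± 0.10) did not pass, and neither did the phospholipase genes Plcb1 (0.34 ± 0.13, adjusted p = 0.207) and Plcb2 (0.49 ± 0.38, adjusted p = 0.520).

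The profiles over the 7 libraries were compared with those of 12579 named genes by the root mean square difference of centred log2 CPM, a measure that is small when libraries rank and spread alike. Nearest to Kcnk3 were Acss1, a mitochondrial acetyl-CoA synthetase (0.0827, against a median of 0.530 over the genes compared), and Ctnna3, the alpha-T-catenin of the intercalated disc (0.0886). Their log2 fold changes were -0.77 and -0.90, a direction that follows from the choice of profiles like that of Kcnk3 in these same libraries and is no separate result. Nearest to Kcnn3 were Gpr153, an orphan receptor (0.0905, median 0.453), and Matn2, a matrix protein (0.0916). Their log2 fold changes, 0.73 and 0.71, follow from the choice in the same way. Kcnn1 lay nearest to Fam109a (0.0531), Kcnn2 to Zfp879 and Frs2 (0.0662 and 0.0680), and Kcnk2 to Lamc3 and Btbd11 (0.203 and 0.235).

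**Figure D5:**
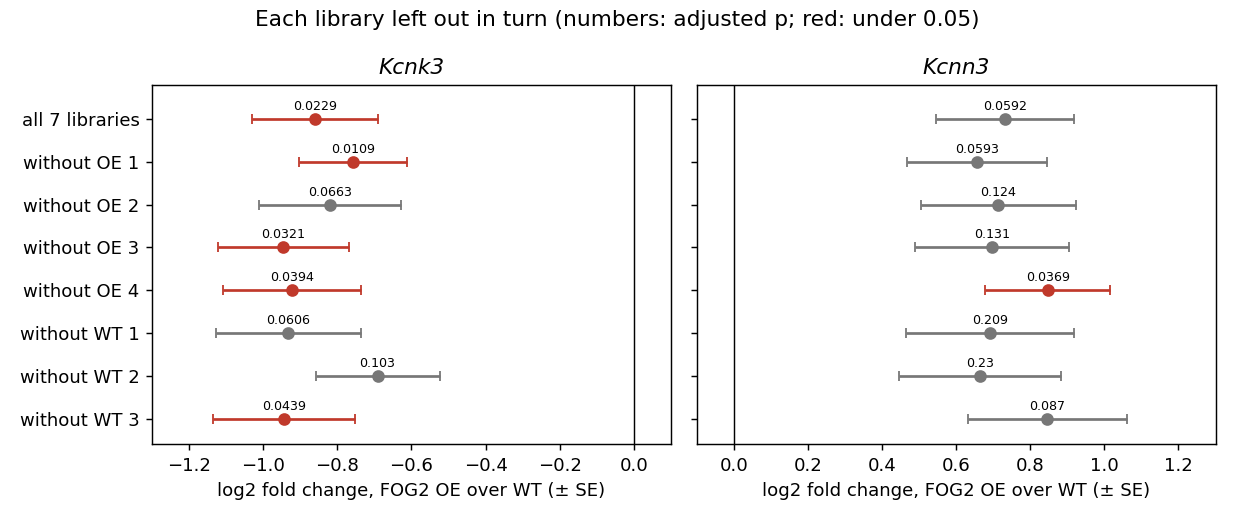
Log2 fold change, FOG2 overexpression over wild type, with the SE (x axis) of Kcnk3 and Kcnn3 with all 7 libraries and with each left out in turn; numbers are adjusted p, red where under 0.05. Kcnk3 stayed between -0.95 and -0.69, and its adjusted p passed 0.05 upward without overexpression replicate 2 or wild type replicates 1 or 2; Kcnn3 stayed between 0.66 and 0.85 and was called only without overexpression replicate 4.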

How the data were processed

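The deposited table gave raw counts per gene symbol for 7 libraries. STAR, HTSeq 0.6.0, DESeq2 and the mm10 build are named, without roles, in the submitters' processing notes; the annotation and strand setting were not stated. A label says polyA, but the library protocol mentions depletion of ribosomal RNA. The 5 summary rows and 1 log row were left out: 23.4% to 30.5% of reads per library fell in no feature, 37.1% to 43.4% mapped more than once, 0.101% to 0.254% were ambiguous, and 27.8% to 33.1% lay in gene rows. All 7 columns were mapped by name.

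Genes were filtered with filterByExpr (minimum count 10, total 15), normalised by TMM and analysed in edgeR 4.0.16 (R 4.3.3) by the robust quasi-likelihood F test, two-sided, with no covariate, and p-values were adjusted by Benjamini-Hochberg over all tested genes (threshold 0.05). SE was derived as the size of the log2 fold change divided by the square root of F. Log2 CPM for profile likeness used a prior count of 2. Exon lengths are from GENCODE M21. Counting intervals cover counting error only. The script was tested on simulated data. Alternatives were RLE, upper quartile or totals-only scaling, other filters, DESeq2 1.42.0, limma-voom (limma 3.58.1), non-robust dispersions, a replicate block and each library left out.

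The members and lists were chosen with earlier results of these data known. The genes named are Zfpm2, the 6 members, called genes or the 4 smallest p of each channel and partner list (Gnaq, Gna11, Adra1a, Adra1b, Chrm3, Myl4, Irx4, Sptbn4 and the markers named were added after their values were seen), and the 2 profiles nearest to each tested member among genes averaging 1 CPM or more. Of the genes this rule names, 2 are not reported here; they stayed in the counts.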

Additional observations from a re-analysis of the deposited data

Results flagged for a closer look

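Kcnk1 in overexpression replicate 1, at 0.111 CPM from 1 read, lay far from the other 3 overexpression libraries, at 1.01, 1.04 and 1.16 CPM. Its gap to the nearest of them took up 0.855 of the range of the group, above Dixon's 95% critical value for 4 samples. Chance alone passes that limit in about 1 of 20 groups, and the values of 6 genes were looked at. The same library stood apart from its group across genes, and without it the log2 ratio of summed Kcnk1 reads was 3.67.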

How the results depend on the processing

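Kcnk3 kept its direction in all 16 alternatives and was called in 13, with log2 fold changes of -0.95 to -0.69 when each library was left out. Kcnn3 kept its direction in all 16 (0.66 to 0.85 with a library left out) and was called with library totals only (0.86) and DESeq2 (0.73) besides the fit without overexpression replicate 4. Kcnk1 (2.71 to 3.67) and Kcnk2 kept their directions. Kcnn1 and Kcnn2 did not: with the replicate number as a block Kcnn1 stood at -0.070, and with a library left out Kcnn1 ranged from -0.12 to 0.15 and Kcnn2 from -0.36 to 0.015; the cause was not tested. The members called numbered 2 with library totals only or DESeq2, and 0 to 2 with a library left out. Over all genes, 206 were higher and 438 lower; the counts were 444 and 294 with library totals only (60.2% of calls higher against 32%, with the median of all genes at 0.15 against 0.022), 437 and 673 with DESeq2, and 129 and 253 with the replicate block; left out in turn, the libraries gave 75 to 493 higher and 181 to 658 lower. Libraries with the same replicate number share only a number: their deviations correlated at 0.0789, 0.0136 and 0.0720, not every library correlated best with its own number, and the block changed no member's call. Kcnk1 had no value under limma-voom, non-robust dispersions or the block, where it was not among the genes fitted. Under the CPM filter it had enough reads to be fitted, but its value was not read out. Of the ratio of Kcnk1 reads, counting error alone allows 2.32 to 81.6. The intervals of Kcnn1, Kcnn2 and Kcnk2 include 0.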

Other observations

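Myl2, the ventricular light chain listed among the SK partners, had 0, 314, 8 and 11 reads in overexpression replicates 1 to 4, against 6, 2 and 4 reads in wild type replicates 1 to 3, so a single overexpression library held nearly all of its reads. Its log2 fold change was 4.51 ± 2.07 (SE; edgeR quasi-likelihood test, adjusted p = 0.296).
Of the ventricular markers, 0 of 2 tested were called, with sums over 3 markers of 13.7 to 115 CPM in overexpression and 47.9 to 80.2 CPM in wild type. Of the macrophage markers, 0 of 5 were called, with sums of 415 to 585 CPM in overexpression and 332 to 495 CPM in wild type. Lung epithelial markers summed to 0.870 to 3.33 CPM in overexpression and 0.739 to 3.25 CPM in wild type, with Sftpc at 0 in every library and 0 of 1 tested called.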
